A study of Mus musculus with 46 samples.

Results

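The genes described here are 8 stress effectors whose transcription is induced by ATF4, namely Chac1, Trib3, Sesn2, Ddit4, Gadd45a, Vldlr, Stc2 and Nupr1. They were chosen by symbol, as genes known to respond to ATF4 and with earlier results of these data in view, so the differences between Ctu1 iKO and control cells, in DMSO and in torin 1, were counted among the values that picked them. Each comparison below uses libraries of these contrasts, torin 1 against DMSO included, so the members' levels, changes and intervals are given as a description, without a p-value, and calls are given as counts to set beside those over all genes. The 8 genes were 8 of 10453 symbols listed in any of the count tables. All 8 were listed in the tables of DMSO libraries, and 5 were listed in the tables of torin 1 libraries, where Chac1, Sesn2 and Stc2 were not listed.

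ATF4 is the transcription factor of the integrated stress response. When kinases such as GCN2 and PERK phosphorylate the initiation factor eIF2, general initiation slows down while ribosomes reach the ATF4 reading frame more often, and ATF4 then induces genes for amino acid supply together with effectors that adjust growth and survival. mTORC1, the kinase complex that torin 1 blocks, also raises ATF4 output, and 2 of the effectors, Sesn2 and Ddit4, are themselves inhibitors of mTORC1. Ctu1 is a subunit of the cytosolic thiouridylase, which adds sulphur to the wobble uridine of the tRNAs that read AAA, CAA and GAA codons.

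The cells were EPP2, a murine pancreatic cancer line that is 1 single-cell-derived clone carrying doxycycline-inducible Cas9. In Ctu1 iKO cells, guides against Ctu1 were combined with 300 ng/ml doxycycline, begun 4 days before the experiment. Control cells carried guides against non-coding regions or were not given doxycycline, and which of these applied to a library is not given in the labels. Differences between Ctu1 iKO and control cells therefore cannot be told apart from effects of doxycycline or of Cas9 cutting. Both genotypes received 300 nM torin 1, an inhibitor of the mTOR kinase, or its solvent DMSO for 2 h. Each lysate gave a footprint library and a poly(A) RNA library, 46 libraries of 23 lysates, with 6 lysates per group except Ctu1 iKO in DMSO, which had 5. Levels are given in CPM, the count scaled to a library total of 1e+06, and ± is the SD unless SE is named. Per the methods, the work was done as 2 independent replicates on consecutive days, while the legends count each footprint replicate as an experiment of its own, and the labels tie no replicate number to a day or to a separate culture. Lysates of a group may thus share a culture, and p-values measure the spread between these samples, which may be technical in part. Footprint totals ran from 4602092 to 52907878 counts per library and RNA totals of replicates 1 to 3 from 129881946 to 293648854. When each library was assigned to the nearest mean profile of the other libraries, 20 of 23 footprint libraries and 11 of 12 RNA libraries of replicates 1 to 3 fell to their own group, but of RNA replicates 4 to 6 only 5 of 11 did. Of the other 6, control torin 1 replicates 5 and 6 lay nearest Ctu1 iKO DMSO (r = 0.577 and 0.590, against -0.547 and -0.498 with their own group), Ctu1 iKO DMSO replicates 4 and 5 nearest Ctu1 iKO torin 1 (0.674 and 0.592, against -0.133 and -0.054), and Ctu1 iKO torin 1 replicates 5 and 6 nearest control DMSO (0.364 and 0.312, against -0.361 and -0.353). These 6 libraries went against their labels, which were kept as given. RNA results therefore rest on replicates 1 to 3, 3 per group, and results over all RNA replicates as labelled are given beside them. Among these replicates 1 to 3, Ctu1 iKO torin 1 replicate 3 lay nearest control torin 1 (r = 0.238, against 0.216 with its own group) and was kept.

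Of 8 epithelial markers 5 were listed, and Krt7, Cdh1 and Cldn4 were not. In footprint libraries Krt8 stood at 113 to 220 CPM, Krt18 at 94.5 to 155, Sox9 at 36.1 to 189 and Krt19 at 8.24 to 20.1. Epcam reached only 0.153 to 2.89 CPM in DMSO libraries. All 8 mesenchymal markers were listed in DMSO. Vim, an intermediate filament, lay at 1862 to 4731 CPM, Col1a1 at 124 to 701, Cdh2 at 90.2 to 226 and Acta2 at 88.7 to 212. Zeb1 lay at 21.2 to 37.8 CPM, and Dcn at 0.631 to 3.88 CPM in DMSO libraries. None of 7 acinar and islet markers was listed. The targeted gene gave a weak check of the labels. Ctu1 footprints in control DMSO libraries ran from 1.58 to 3.43 CPM, with a mean of 2.52 ± 0.65 (n = 6), and in Ctu1 iKO DMSO libraries from 1.30 to 2.27 CPM, with a mean of 1.78 ± 0.41 (n = 5), so that the groups overlapped and the log2 change was -0.54 ± 0.29 (SE). Ctu1 RNA was 4.61 ± 0.12 CPM in control and 4.62 ± 0.30 CPM in Ctu1 iKO cells (n = 3 each). Ctu1 iKO DMSO replicates 4 and 5, not used and nearest Ctu1 iKO torin 1 in profile, held 3.09 to 3.27 CPM, below all 6 control libraries (4.22 to 5.25 CPM). Why Ctu1 RNA of replicates 1 to 3 did not differ was not tested, and Ctu1 was not listed in the torin 1 tables.

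The letters that ATF4 is known to bind together with C/EBP partners were found in the promoter windows of 4 of the 8 genes. Windows ran from 250 bases before to 50 bases after a gene start as RefSeq places it (GRCm38.p6), which can differ from the outermost start in another annotation, and were searched on both strands for TGATGNAA, which reads TTNCATCA on the other strand. Each line below is 30 bases on the strand of the gene, with the matching letters in capitals, shown because these are the letters through which ATF4 is known to act on such genes.
Chac1: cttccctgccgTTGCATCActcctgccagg
Trib3: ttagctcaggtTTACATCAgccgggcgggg
Nupr1: aaagggccagaTTGCATCAgacagggcttg
Vldlr: agcagcaatagTTGCATCAgcgctcctagc
The 4 stretches lie at chr2:119351038-119351067 on the plus strand, chr2:152344028-152344057 on the minus strand, chr7:126625562-126625591 on the minus strand and chr19:27216809-27216838 on the plus strand. On the strand of the gene, the match began 193 bases before the RefSeq start in Chac1 (position 119351242), 14 bases after it in Trib3 (position 152344060), 110 bases before it in Nupr1 (position 126625470) and 200 bases before it in Vldlr (position 27217020), where 1 of 2 promoters held it. Such a match was present for 220 of 8287 genes of the tables, or 2.65%, and in 3.97% of all promoters. The letters were not in the windows of Sesn2, Ddit4, Gadd45a and Stc2, which says nothing of other positions.

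To see how the 8 effectors differed between genotypes in cells with active mTOR, footprints of Ctu1 iKO and control cells in DMSO were set side by side. All 8 had a log2 change above 0, from 0.54 for Stc2 to 2.48 for Chac1, with a median of 1.11 against -0.00 over all genes tested. In 5 genes every Ctu1 iKO library lay above every control library, where 3.11% of all genes tested showed such a separation upwards. In edgeR's quasi-likelihood test with a Benjamini-Hochberg adjusted p under 0.05, the rule for a called gene throughout, 4 of the 8 were called higher, where 1.63% of all genes were called higher and 1.04% lower. Nothing is read from these counts, since this contrast helped to pick the genes.

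Chac1, which encodes an enzyme that breaks down glutathione, moved most. Its control footprint libraries held 0.827, 1.16, 1.84, 1.71, 1.76 and 1.37 CPM, and its Ctu1 iKO libraries 9.70, 7.49, 10.3, 8.48 and 5.85 CPM. The lowest Ctu1 iKO library stood above the highest control library, and the means of 1.45 ± 0.40 and 8.37 ± 1.79 CPM gave a log2 change of 2.48 ± 0.25 (SE), or 5.58-fold. Every gene in the tables reached a footprint count of at least 100 in some library, and no control library held more than 93 counts of Chac1, so that the gene was listed only through its Ctu1 iKO libraries. In RNA, Chac1 lay at 2.51, 2.78 and 3.86 CPM in control and at 16.4, 8.70 and 15.9 CPM in Ctu1 iKO cells, a log2 change of 2.17 ± 0.28 (SE). Replicates 4 and 5 of Ctu1 iKO RNA, not used above and nearest Ctu1 iKO torin 1 in profile, held 2.22 and 3.34 CPM, the first below and the second within the range of the 6 control libraries (2.51 to 3.90 CPM).

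Trib3, a pseudokinase that binds AKT and feeds back on ATF4 and CHOP, stood at 4.33 to 8.46 CPM in control footprints and at 13.4 to 19.9 CPM in Ctu1 iKO footprints, with no overlap. Means of 7.10 ± 1.53 and 16.7 ± 3.05 CPM gave a log2 change of 1.20 ± 0.17 (SE). Trib3 RNA was 11.7, 11.6 and 12.1 CPM in control and 29.6, 23.5 and 28.6 CPM in Ctu1 iKO cells, again apart, with a log2 change of 1.23 ± 0.10 (SE). The log2 changes of Trib3 in both assays differed by less than their SE. Ctu1 iKO RNA replicates 4 and 5, nearest Ctu1 iKO torin 1 in profile, held 9.86 to 10.9 CPM, within the range of the 6 control libraries (5.94 to 14.8 CPM).

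Sesn2, the leucine-binding sestrin that restrains mTORC1 through GATOR2, held 3.34, 3.82, 4.46, 2.80, 3.38 and 3.42 CPM in control footprints and 9.88, 7.33, 10.8, 7.15 and 7.46 CPM in Ctu1 iKO footprints. The groups were apart, and the log2 change was 1.23 ± 0.19 (SE). Sesn2 RNA went from 7.57, 7.70 and 8.77 CPM to 24.9, 19.0 and 22.4 CPM, a log2 change of 1.48 ± 0.12 (SE). Ddit4, known as REDD1, which restrains mTORC1 through the TSC complex, ranged more widely among replicates. Control footprints ran from 4.52 to 8.72 CPM and Ctu1 iKO footprints from 6.63 to 17.0 CPM, with overlap, a log2 change of 0.60 ± 0.25 (SE) and no call. Ddit4 RNA gave 11.9, 8.71 and 11.7 CPM in control against 17.0, 10.3 and 16.2 CPM in Ctu1 iKO cells, also overlapping, with a log2 change of 0.44 ± 0.21 (SE). Of the 2 inhibitors of mTORC1, Sesn2 was the one whose libraries were apart in footprints and in RNA replicates 1 to 3. Ctu1 iKO RNA replicates 4 and 5, nearest Ctu1 iKO torin 1 in profile, held 4.45 and 5.69 CPM of Sesn2, below and within the range of the 6 control libraries (5.56 to 10.7 CPM). Of Ddit4 they held 4.24 to 4.65 CPM, below all 6 control libraries (6.29 to 11.9 CPM).

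Gadd45a, a growth arrest and DNA damage protein, was second to Chac1 in footprints. Its control libraries held 3.50, 2.44, 3.15, 1.67, 3.27 and 3.08 CPM and its Ctu1 iKO libraries 9.05, 10.1, 11.05, 9.11 and 8.70 CPM. The Ctu1 iKO libraries lay within a narrow band far above the control ones, with a log2 change of 1.71 ± 0.19 (SE). In RNA the change was 1.16 ± 0.13 (SE), from 3.44, 2.90 and 3.42 CPM to 7.35, 6.48 and 7.78 CPM. Nupr1, a small chromatin-associated stress protein, overlapped in footprints, with 4.33 to 20.4 CPM in control and 15.7 to 22.99 CPM in Ctu1 iKO libraries and a log2 change of 0.64 ± 0.29 (SE). Its RNA did not overlap, with 12.6 to 22.9 CPM in control and 29.5 to 32.1 CPM in Ctu1 iKO cells, and changed by 0.87 ± 0.19 (SE).

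The remaining 2 genes encode a surface receptor and a secreted protein. Vldlr, the very low density lipoprotein receptor, held 5.65 to 14.6 CPM in control footprints and 10.98 to 34.4 CPM in Ctu1 iKO footprints, which overlapped, with a log2 change of 1.02 ± 0.28 (SE). Its RNA was 26.1, 17.6 and 9.37 CPM in control and 42.8, 34.3 and 29.3 CPM in Ctu1 iKO cells, which were apart although control replicates spanned a wide range, with a log2 change of 1.03 ± 0.32 (SE). Stc2, a secreted glycoprotein that inhibits the protease PAPP-A, had control footprints of 4.43 to 5.997 CPM and Ctu1 iKO footprints of 6.018 to 12.1 CPM. The 2 groups touched without overlapping, and the log2 change was 0.54 ± 0.20 (SE). Stc2 RNA went from 10.8, 10.3 and 9.83 CPM to 17.8, 15.0 and 14.2 CPM, a log2 change of 0.62 ± 0.10 (SE).

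**Figure D1:**
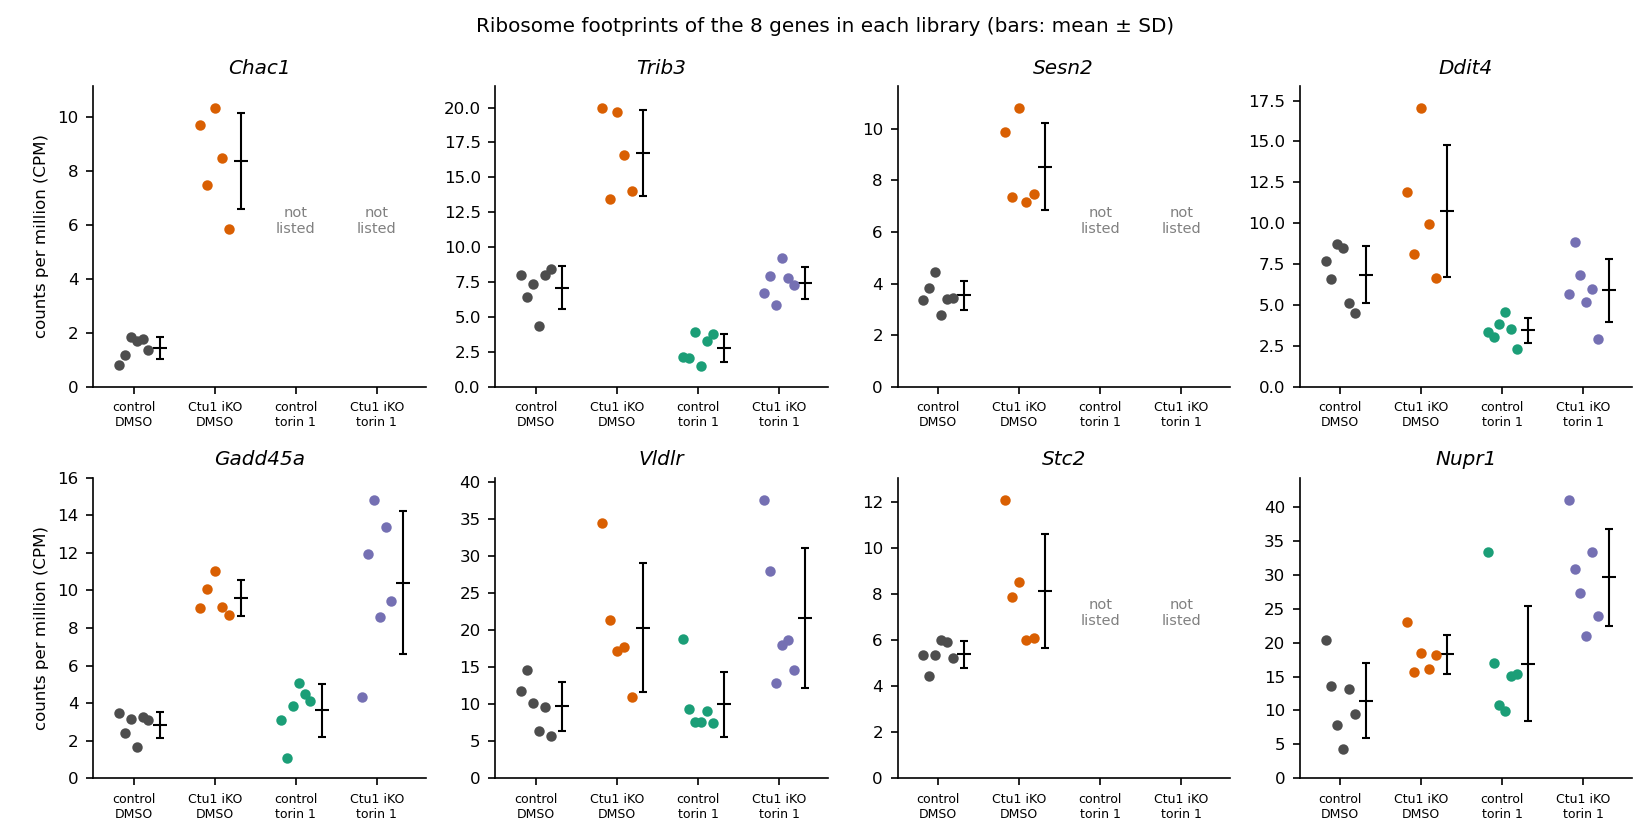
Footprint levels in CPM (y axis, from 0, 1 panel per gene) for each group (x axis), 1 point per library, with the group mean ± SD as bars. Chac1, Trib3, Sesn2, Gadd45a and Stc2 have every Ctu1 iKO DMSO point above every control DMSO point, and the torin 1 groups are marked as not listed for Chac1, Sesn2 and Stc2.

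Over the 8 genes in RNA, 6 were called higher (all but Vldlr and Ddit4) and 7 were apart between groups, against 3.32% of genes called higher, 1.80% called lower and 14.3% apart upwards over all genes, with a median log2 change of 1.096. With the replicate number as a block, Vldlr (log2 change 1.12) and Ddit4 (0.43) were also called, so that all 8 were, while the genes called higher over the whole table went from 3.32% to 14.3%. Without control DMSO replicate 2 none of the 8 was called, nor was any other gene by edgeR (0%, with 16.8% at an unadjusted p under 0.05), and without Ctu1 iKO DMSO replicate 1, 3 were (0.316% of all genes higher). Over all RNA replicates as labelled 5 of the 8 were called, against 14.4% of all genes higher, with Sesn2 at 0.92 and Stc2 at 0.24 not called. Over all alternatives the RNA call was lost in 6 of 13 fits for Nupr1 and 6 of 12 for Stc2. It was lost in 3 of 12 for Chac1, 2 of 12 for Sesn2 and 1 of 13 each for Trib3 and Gadd45a. Leaving out 1 library gave 0 to 511 genes called over all genes. The footprint libraries allowed a look at the replicates in separate sets. Log2 changes in replicates 1 to 3 and in replicates 4 and later were 2.80 and 2.10 for Chac1, 1.69 and 1.68 for Gadd45a, 1.23 and 1.14 for Sesn2, 1.24 and 1.105 for Trib3 and 0.96 and 0.94 for Vldlr. They were 0.65 and 0.42 for Ddit4, 0.41 and 0.89 for Nupr1 and 0.87 and 0.037 for Stc2. On the log2 scale the sets lay furthest apart for Stc2 and Chac1 and closest for Gadd45a and Vldlr. None of the 8 was called within either set, where 0.0192% and 0.0481% of all genes were called higher. Without the 3 footprint libraries that lay nearest another group (Ctu1 iKO DMSO replicates 1 and 2 and control torin 1 replicate 1) the 4 footprint calls in DMSO held for Chac1, Sesn2, Trib3 and Gadd45a. In that fit 343 of 10396 genes were called, against 277 of 10397 with all libraries.

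**Figure D2:**
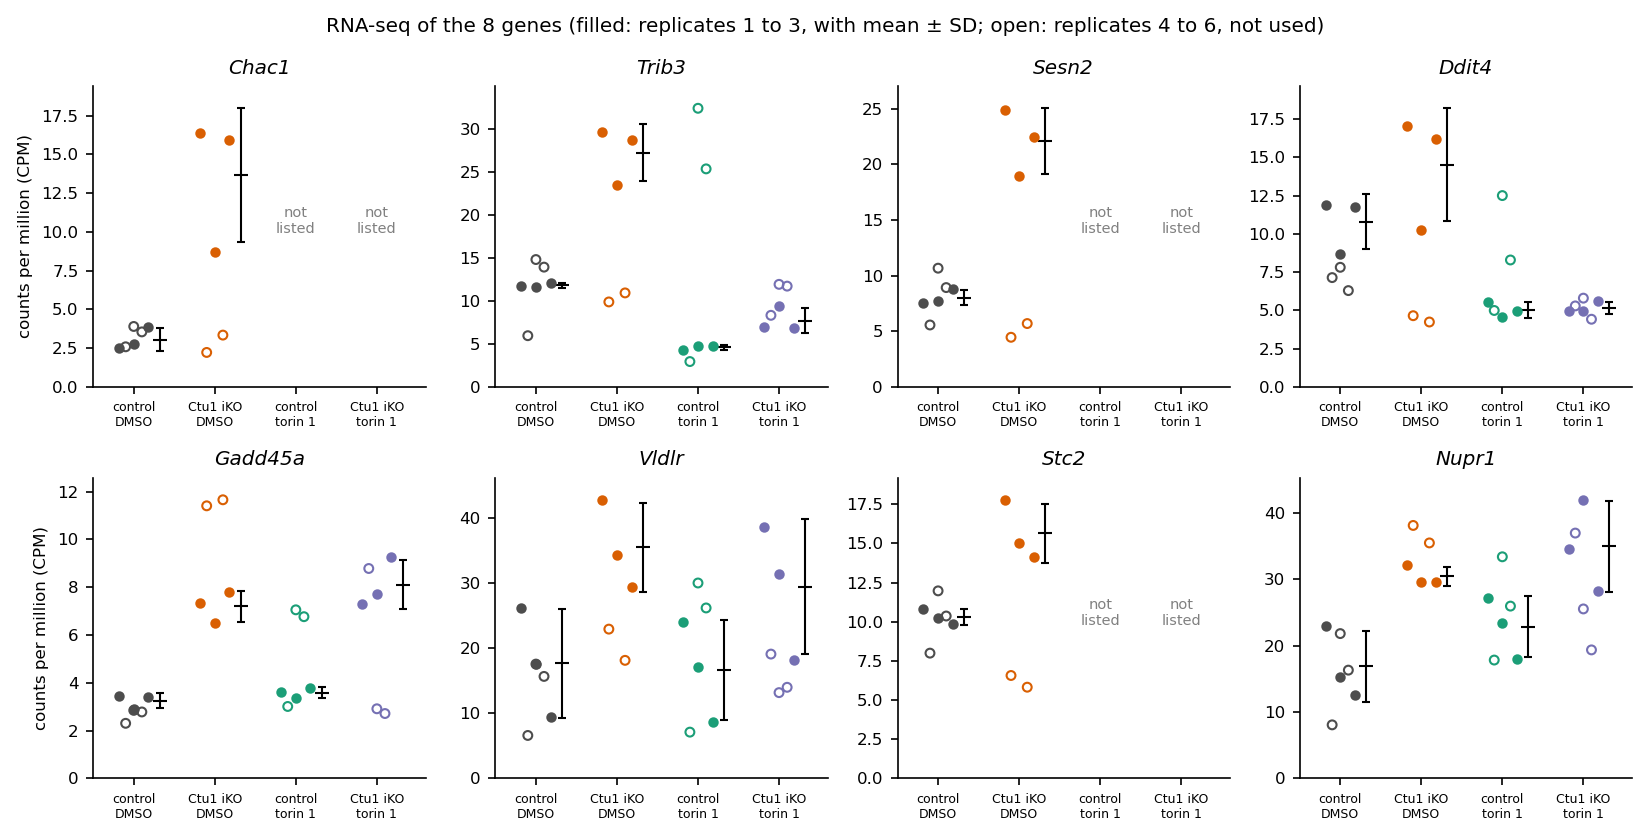
RNA levels in CPM (y axis, from 0, 1 panel per gene) for each group (x axis), 1 point per library, filled for replicates 1 to 3 with their mean ± SD as bars and open for replicates 4 to 6, which were not used. Trib3 in replicates 1 to 3 is highest in Ctu1 iKO DMSO libraries (23.5 to 29.6 CPM) and lowest in control torin 1 libraries (4.23 to 4.79 CPM).

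Compared per kilobase of coding sequence, the footprint levels of the 8 genes differed widely. In control DMSO libraries the order from the bottom was Chac1 (2.16 CPM per kb), Sesn2 (2.46), Vldlr (3.71), Gadd45a (5.76), Stc2 (6.06), Trib3 (6.69), Ddit4 (9.97) and Nupr1 (47.8). Neighbouring ranks up to Ddit4 overlapped in their libraries, while Nupr1, whose lowest control library held 18.04 CPM per kb, stood above the highest Ddit4 library of 12.7. In Ctu1 iKO DMSO libraries Sesn2 was lowest (5.92), Chac1 stood at 12.5, Gadd45a at 19.4 and Nupr1 was again highest (76.3). Chac1 thus went from the bottom of the order to the middle. The codons served by Ctu1-dependent tRNAs were rare in most of these coding sequences: AAA, CAA and GAA together made up 2.26% of codons in Trib3, 2.62% in Ddit4, 3.33% in Sesn2, 4.05% in Stc2, 4.48% in Chac1, 4.85% in Gadd45a, 7.67% in Vldlr and 10.0% in the 80 codons of Nupr1. The median over 10159 genes was 6.06%, so 6 of the 8 genes lay under it.

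The next comparison asks how the effectors respond when mTOR is blocked, for the 5 listed in both kinds of table. Its control libraries, DMSO and torin 1, are those of the Ctu1 contrasts that picked the genes, so its values too are a description. In control cells, torin 1 lowered Trib3 and Ddit4 and left no call for the other 3. Trib3 footprints went from 4.33 to 8.46 CPM in DMSO to 2.16, 2.07, 3.91, 1.48, 3.26 and 3.77 CPM in torin 1, with no overlap, and fell by 1.43 ± 0.25 (SE) on the log2 scale. Ddit4 footprints went from 4.52 to 8.72 CPM to 2.33 to 4.57 CPM, with a slight overlap, and fell by 1.09 ± 0.23 (SE). Nupr1 (0.46), Gadd45a (0.27) and Vldlr (-0.07) were not called. Over all genes 4.33% were called lower and 2.91% higher, and 2.41% were apart downwards. Without the 3 libraries nearest another group the calls for Trib3 and Ddit4 held, and 737 of 9856 genes were called, against 714 with all libraries.

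RNA gave the same 2 calls among the 5 genes. Trib3 RNA was 4.23, 4.77 and 4.79 CPM in control torin 1 libraries against 11.6 to 12.1 CPM in DMSO, and fell by 1.33 ± 0.10 (SE) on the log2 scale. Ddit4 RNA was 5.56, 4.58 and 4.94 CPM against 8.71 to 11.9 CPM, and fell by 1.07 ± 0.14 (SE). Both genes were apart in RNA, as were 21.4% of all genes downwards, while 7.25% were called lower and 5.75% higher. Nupr1 had a log2 change of 0.47, Gadd45a of 0.17 and Vldlr of -0.06, and none of the 3 was called. With the replicate number as a block, Nupr1 was called higher in footprints (0.50) and in RNA (0.49), and 9.88% and 21.4% of all genes were called higher in those fits. Over all RNA replicates as labelled none of the 5 was called, against 4.86% of all genes lower, and Trib3 turned to 0.11, with 32.4 and 25.3 CPM in control torin 1 replicates 5 and 6, the libraries whose profile was nearest Ctu1 iKO DMSO.

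In Ctu1 iKO cells the DMSO libraries are those whose levels helped to pick the genes, so nothing is read from a fall from them. Trib3 went from 13.4 to 19.9 CPM in DMSO to 6.74, 7.93, 5.83, 9.22, 7.78 and 7.26 CPM in footprints, without overlap. Its log2 change was -1.26, and it was the 1 member called. Ddit4 footprints ran from 2.91 to 8.84 CPM after torin 1, overlapping the DMSO range of 6.63 to 17.0 CPM, with a log2 change of -0.97 ± 0.30 (SE). Nupr1 stood at 21.1 to 41.1 CPM against 15.7 to 22.99 CPM (log2 change 0.59), and with the replicate number as a block it was called higher (0.63), as were 4.63% of all genes. Gadd45a and Vldlr had log2 changes of 0.03 and -0.01. Of all genes 4.52% were called lower and 3.48% higher, and 3.41% were apart downwards. Without the 3 libraries nearest another group Trib3 was again the 1 call, and 521 of 9856 genes were called, against 788 of 9855 with all libraries.

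In RNA both Trib3 and Ddit4 were called lower in these cells, again as a description. Trib3 RNA went from 23.5 to 29.6 CPM to 6.90, 9.40 and 6.80 CPM, a log2 change of -1.77 ± 0.16 (SE). Ddit4 RNA went from 10.3 to 17.0 CPM to 4.92, 4.98 and 5.63 CPM, a log2 change of -1.43 ± 0.20 (SE). Both were apart, as were 22.6% of all genes downwards, while 4.52% of all genes were called lower and 3.73% higher in RNA. Nupr1 (0.26), Gadd45a (0.23) and Vldlr (-0.21) were not called. Without Ctu1 iKO torin 1 replicate 2, 1 of the 2 RNA calls remained (1.27% of all genes lower). Over all RNA replicates as labelled edgeR called 0 of 9633 genes (4.84% at an unadjusted p under 0.05), so that nothing is read from the lack of a call for Trib3 (-1.14) and Ddit4 (-0.99).

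**Figure D3:**
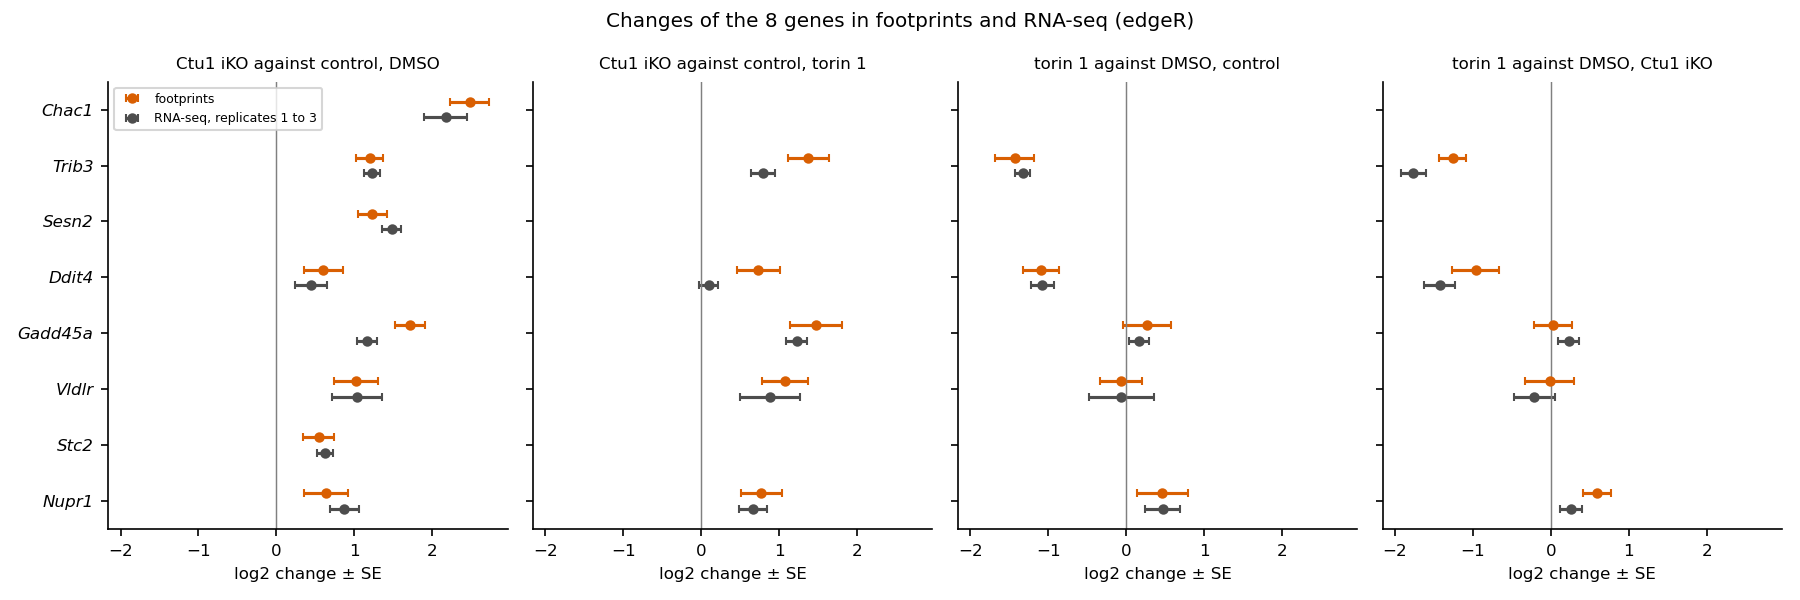
Log2 change (x axis) of each gene (y axis) in each comparison (panels), footprints in orange and RNA replicates 1 to 3 in grey, with bars of 1 SE and a line at 0. All points lie above 0 for Ctu1 iKO against control in DMSO, and Trib3 and Ddit4 lie below 0 in both torin 1 comparisons.

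Whether the effectors were also higher in Ctu1 iKO cells with mTOR blocked was asked by comparing both genotypes in torin 1. The genes were picked with this contrast also known, so its values are a description and nothing is read from its counts. All 5 genes had a footprint change above 0 (median 1.077), and 3 were called higher, where 2.23% of all genes were called higher and 2.60% lower. Trib3 was the only one of the 5 that was apart (2.40% of all genes upwards), with 1.48 to 3.91 CPM in control and 5.83 to 9.22 CPM in Ctu1 iKO libraries and a log2 change of 1.37 ± 0.26 (SE). Gadd45a held 3.12, 1.084, 3.83, 5.09, 4.49 and 4.12 CPM in control and 4.35, 11.9, 14.8, 8.58, 13.4 and 9.43 CPM in Ctu1 iKO libraries, so that 1 Ctu1 iKO library lay within the control range, and the log2 change was 1.47 ± 0.33 (SE). Vldlr ran from 7.43 to 18.8 CPM in control and from 12.9 to 37.6 CPM in Ctu1 iKO libraries with a log2 change of 1.077 ± 0.29 (SE). The call for Vldlr was lost in 10 of 12 fits that left out 1 library, and over the 12 fits 1.23% to 2.58% of all genes were called higher. Nupr1 (0.77 ± 0.26, SE) and Ddit4 (0.73 ± 0.28, SE) were not called. With the replicate number as a block, Nupr1 was called as well (0.85), among 7.02% of all genes. Without the 3 libraries nearest another group it was also called, beside Trib3, Gadd45a and Vldlr, among 1.96% of all genes.

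In RNA, Gadd45a alone of the 5 was called, where 0.953% of all genes were called higher and 0.352% lower. It went from 3.62, 3.35 and 3.78 CPM to 7.31, 7.73 and 9.26 CPM, a log2 change of 1.23 ± 0.13 (SE). Trib3 (0.79 ± 0.16, SE) and Nupr1 (0.66 ± 0.18, SE) were also apart between groups, as were 10.1% of all genes upwards. The log2 change was 0.88 ± 0.39 (SE) for Vldlr and 0.09 ± 0.13 (SE) for Ddit4. With the replicate number as a block, Trib3 (0.78), Nupr1 (0.66) and Vldlr (0.92) were called, which makes 4 of 5, and 17.3% of all genes were called higher in that fit. Without control torin 1 replicate 1, 2 or 3, or without Ctu1 iKO torin 1 replicate 2, none of the 5 was called, against 0.0104% to 0.124% of all genes higher. Over all RNA replicates as labelled edgeR called 0 of 9675 genes (2.57% at an unadjusted p under 0.05), and Trib3 (-0.39) and Ddit4 (-0.36) lay below 0.

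The 4 groups thus ordered differently from gene to gene in footprint CPM. Trib3 ran from control torin 1 (2.77 ± 1.01) through control DMSO (7.10 ± 1.53) and Ctu1 iKO torin 1 (7.46 ± 1.15) to Ctu1 iKO DMSO (16.7 ± 3.05), and the middle 2 groups overlapped. Ddit4 had the same order of ends, from 3.45 ± 0.75 in control torin 1 to 10.7 ± 4.04 in Ctu1 iKO DMSO, with Ctu1 iKO torin 1 (5.89 ± 1.95) and control DMSO (6.85 ± 1.76) between them and overlapping. Gadd45a followed genotype in its means, with 2.85 ± 0.68 and 3.62 ± 1.41 in control and 9.60 ± 0.96 and 10.4 ± 3.79 in Ctu1 iKO cells, DMSO first. Vldlr did so too, with overlap of single libraries, and stood at 9.72 ± 3.33 and 9.97 ± 4.39 in control and 20.3 ± 8.72 and 21.6 ± 9.42 in Ctu1 iKO cells. Nupr1 was lowest in control DMSO (11.5 ± 5.58) and highest in Ctu1 iKO torin 1 (29.6 ± 7.17), with control torin 1 (16.9 ± 8.48) and Ctu1 iKO DMSO (18.3 ± 2.90) overlapping between them.

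How far torin 1 acted differently in the 2 genotypes was described by the interaction term over the 4 groups, which is the difference of the 2 contrasts known when the genes were picked. None of the 5 genes was called in footprints by edgeR, with 0 at an unadjusted p under 0.05, while 0.639% of all genes were called. DESeq2 and the fit with the replicate block also called 0 of the 5. The interaction was 0.17 for Trib3 (95% interval -0.44 to 0.79), 0.13 for Ddit4 (-0.66 to 0.92), 0.14 for Nupr1 (-0.72 to 0.99), 0.06 for Vldlr (-0.85 to 0.96) and -0.24 for Gadd45a (-1.06 to 0.58), and every interval spanned 0. For Ddit4, Nupr1 and Vldlr they hold a 1.5-fold difference in either direction. In RNA 0% of genes were called by edgeR and 0 members by DESeq2, and 140 genes had an unadjusted p under 0.05. Among the 5 genes, 1 had an unadjusted p under 0.05 there in edgeR's test, namely Trib3, with an interaction of -0.42 (interval -0.86 to 0.01). That interval rests on the residual degrees of freedom alone and spans 0, and nothing is read from this value.

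Translational efficiency is the change in footprints over and above that in RNA. It was estimated as an interaction of assay and group over replicates 1 to 3, without a term for the lysate that both assays share. With such a term the SE for Ctu1 iKO in DMSO went from 0.45 to 0.30 for Chac1 and from 0.41 to 0.22 for Nupr1. For Gadd45a it went from 0.277 to 0.285. In that fit 1 gene was called over all genes, and none of the 8. For Ctu1 iKO against control in DMSO 0% of genes were called (380 at an unadjusted p under 0.05), so that no gene of the 8 was, and the values were 0.62 for Chac1 (95% interval -0.43 to 1.67), 0.52 for Gadd45a (-0.11 to 1.16), 0.24 for Stc2 (-0.33 to 0.82), 0.20 for Ddit4 (-0.66 to 1.06) and 0.01 for Trib3 (-0.52 to 0.55). Vldlr (-0.07, interval -1.14 to 0.99), Sesn2 (-0.25, interval -0.85 to 0.35) and Nupr1 (-0.47, interval -1.41 to 0.48) lay below 0. The intervals are wide, and the upper end was over 1 on the log2 scale for Chac1, Gadd45a and Ddit4. In torin 1 the same contrast called 0.114% of all genes and none of the 5. Ddit4 had the largest value there, 0.93 (interval 0.17 to 1.70), fitted on replicates 1 to 3, where its footprints had changed by 1.036 and its RNA by 0.09. In footprint replicates 4 to 6 its change was 0.38. Torin 1 itself called 1.18% of all genes in control and 1.77% in Ctu1 iKO cells, and none of the 5, whose values ran from -0.43 to -0.02 in control and from -0.26 to 0.54 in Ctu1 iKO cells.

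**Figure D4:**
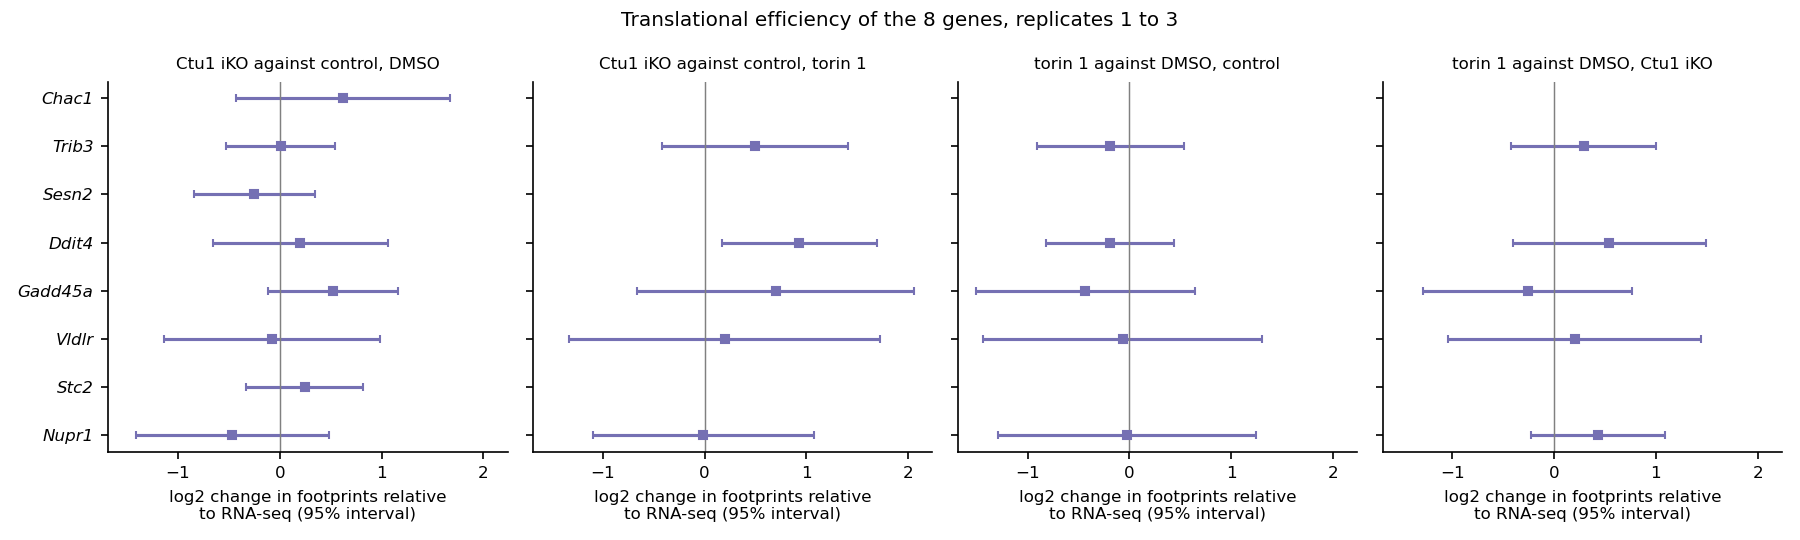
Change in translational efficiency (log2, x axis) of each gene (y axis) in each comparison (panels), with 95% intervals as bars and a line at 0. For Ctu1 iKO against control in DMSO all 8 intervals cross 0, and in torin 1 the interval of Ddit4 (0.17 to 1.70) is the one that does not.

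For the factor upstream, Atf4 footprints averaged 92.7 ± 11.2 CPM in control DMSO, 189 ± 22.8 in Ctu1 iKO DMSO, 69.5 ± 10.6 in control torin 1 and 127 ± 15.4 in Ctu1 iKO torin 1 libraries. In edgeR's quasi-likelihood test Atf4 was called in each comparison of groups. It was higher in Ctu1 iKO cells (0.99 in DMSO and 0.83 in torin 1) and lower after torin 1 (-0.51 in control and -0.67 in Ctu1 iKO cells). Its RNA changed by 0.64, 0.52, -0.67 and -0.78 in the same order, all called. Over all RNA replicates as labelled, the 6 libraries nearest another group included, these values were 0.37, 0.00046, -0.13 and -0.51, none called. Ddit3, which encodes CHOP, was higher in footprints of Ctu1 iKO cells (1.41 in DMSO and 1.09 in torin 1). After torin 1 its footprints were not called (-0.34 in control and -0.66 in Ctu1 iKO cells). Its RNA was then called lower in Ctu1 iKO cells (-0.77) and not in control cells (-0.23). With the replicate number as a block, Ddit3 RNA was called lower in control cells as well (-0.23), where 22.8% of all genes were. Both genes stand in a list drawn up with earlier results known, so their values are a description as well. With all RNA replicates as labelled, the log2 change of Ddit3 RNA after torin 1 was -0.68 in Ctu1 iKO and 0.57 in control cells, neither called.

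Other genes of the pathway were counted from lists drawn up by function, with earlier results of these data known, so that their counts are not independent evidence. In Ctu1 iKO footprints in DMSO, 3 of 14 regulators of the integrated stress response were called higher (Atf5 at 1.74, Ddit3 and Atf4) and none lower, with a list median of 0.29, where 1.63% of all genes were called higher and 1.04% lower. Of the enzymes of amino acid and one-carbon metabolism 7 of 15 were called higher, led by Aldh1l2 (1.14), a mitochondrial folate enzyme, Pycr1 (0.86), a proline enzyme, and Cth (0.73), a cysteine enzyme. Of the tRNA synthetases 6 of 12 were called higher, with Tars, Nars and Sars between 0.46 and 0.49. The amino acid transporters gave 0 calls among 10. Of the other ATF4 or CHOP effectors 3 of 10 were called higher, namely Herpud1 (0.99), Ifrd1 (0.79) and Sqstm1 (0.36). The 14 targets of ATF6 and XBP1, the 9 targets of p53 and the 14 proteins through which the effectors touch mTORC1 gave 0 calls each. Among 10 paralogs of the 8 genes, Lrp8 was called lower (-0.60) and none was called higher. In RNA the counts of genes called higher were 5 of 14 regulators, 4 of 15 enzymes, 5 of 12 synthetases, 1 of 10 transporters and 3 of 10 other effectors, and with the replicate block these became 8, 12, 10, 3 and 5, while over all genes the share called higher went from 3.32% to 14.3%. Krt8 footprints (0.36) were the 1 call among 5 epithelial and 8 mesenchymal markers in footprints. Acta2 (2.21) and Dcn (1.36), 2 of the 8 mesenchymal markers, were called higher in RNA, and with the replicate block 5 of the 8 were, beside 1 of 5 epithelial markers, and the part of these markers in the results was not tested.

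Under torin 1, Ctu1 iKO footprints showed 3 of 14 regulators, 5 of 14 enzymes, 3 of 12 synthetases and 2 of 10 other effectors called higher (Ifrd1 at 1.42, a transcriptional cofactor, and Ndrg1 at 0.56), where 2.23% of all genes were called higher, and with the replicate block 8 synthetases and 6 other effectors, in a fit that called 7.02% of all genes higher. Dnajb9 (0.95), an ER chaperone partner, was the 1 call among 14 targets of ATF6 and XBP1, Lrp8 (-0.70) the 1 among 9 paralogs and Ywhaz (-0.30) the 1 among 14 mTORC1 inputs. In RNA 3 regulators, 3 enzymes, 2 other effectors and 0 synthetases were called higher, as were 0.953% of all genes. With the block 7 regulators, 12 enzymes, 5 other effectors and 9 synthetases were called higher and 2 regulators lower, where 17.3% of all genes were called higher. Of 4 epithelial and 7 mesenchymal markers, Sox9 was called higher in footprints (0.61) and Vim in RNA (0.72), and with the replicate block 3 of the 4 epithelial markers were called in footprints and 3 in RNA, and 1 and 4 of the 7 mesenchymal ones. The part of these markers in the results was not tested.

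For torin 1 in control footprints, where 4.33% of all genes were called lower and 2.91% higher, 1 of 14 regulators (Atf4) and 2 of 14 enzymes (Mthfd2 at -0.52 and Phgdh at -0.34) were called lower, and the synthetases had 0 calls. With the replicate block 6 enzymes and 5 synthetases were called lower, as were 10.6% of all genes. Other effectors split, with 4 of 10 higher, among them Ndrg1 (0.89) and Cdkn1a (0.78), and 2 lower, among them Ifrd1 (-1.19). The paralogs Trib1 (0.52) and Trib2 (0.59) were called higher where Trib3 was called lower. In Ctu1 iKO footprints, where 4.52% of all genes were called lower and 3.48% higher, 3 regulators were called lower (Jdp2 at -1.16, Atf5 at -0.75 and Atf4), as were 4 of 14 enzymes, 1 of 12 synthetases and 2 other effectors (Herpud1 at -1.03 among them), while Ndrg1 (1.23) and Sqstm1 (0.62) rose. The 4 epithelial and 7 mesenchymal markers moved in both directions after torin 1. In control footprints Sox9 (0.83) and Pdgfra (0.88) were called higher and Vim (-0.48) lower. In Ctu1 iKO footprints Sox9 (1.01), Pdgfra (1.60) and Pdgfrb (0.85) were called higher and Vim (-0.93) and Krt18 (-0.52) lower. RNA of Vim was called higher in both (0.38 in control and 0.75 in Ctu1 iKO cells), as was that of Krt18 (0.56 and 0.81) and Sox9 (0.69 and 1.07), beside Pdgfra (1.03) in control and Krt8 (0.55) in Ctu1 iKO cells. The part of these markers in the results was not tested.

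**Figure D5:**
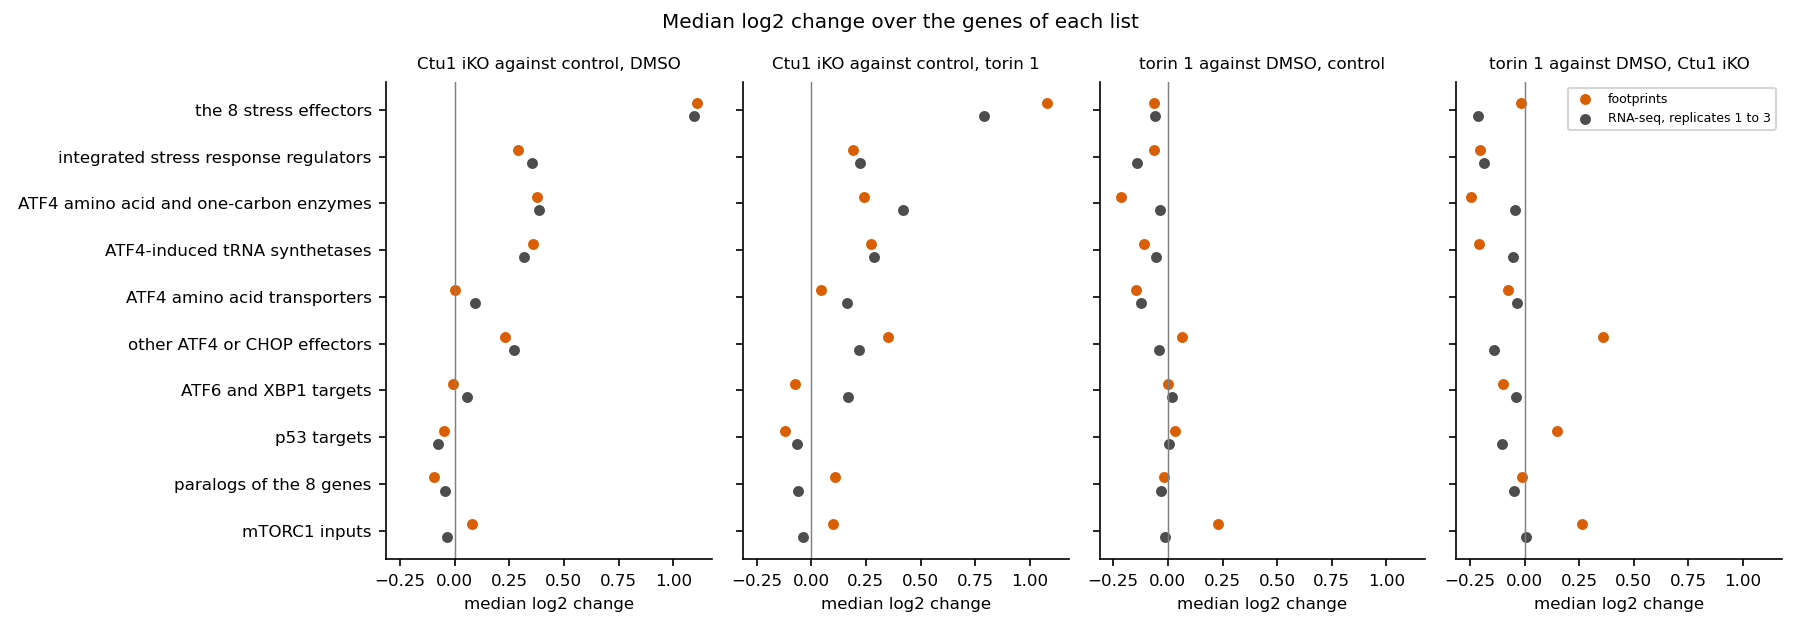
Median log2 change (x axis) over the tested genes of each list (y axis) in each comparison (panels), footprints in orange and RNA replicates 1 to 3 in grey, with a line at 0. In DMSO the 8 chosen genes have medians of 1.11 and 1.096 for Ctu1 iKO against control, while the regulators, enzymes and tRNA synthetases lie between 0.29 and 0.39.

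How closely the 5 genes listed in every table moved together was described over the 23 footprint libraries, whose points share group and depth. Pearson's r over the 10 pairs had a median of 0.51 and ran from -0.03 for Ddit4 with Nupr1 to 0.76 for Vldlr with Nupr1. Trib3 and Ddit4, the 2 genes lowered by torin 1, gave 0.73. The genes most like the mean profile of the 5, among 8851 genes whose counts averaged 100 or more, were Trim35 (r = 0.910), Anxa3 (0.909), Aldh1l2 (0.905), Sars (0.896), Atf5 (0.891), Atf4 (0.874), Serp1 (0.864), Nars (0.862), Psph (0.844) and Rras2 (0.832). Of these 10 genes, 6 stand in the lists above, Atf4 and Atf5 among the regulators, Aldh1l2 and Psph among the enzymes and Sars and Nars among the synthetases. These 3 lists hold 37 of the 8851 genes compared, or 0.418%, and since the profile and the lists were both chosen with earlier results known, nothing is read from the overlap.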

How the data were processed

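Raw counts per gene were deposited, as the authors made them. For footprints the authors trimmed adapters with cutadapt 3.4, split barcodes, dropped short fragments, collapsed molecular identifiers with UMI-tools 1.1.1, removed ribosomal RNA with BLAT and aligned with STAR 2.5.3a. The submitters' processing notes name mm10, while the study's methods name a human build for the footprints of this murine line. No coordinate of the files was used. RNA was trimmed, aligned and counted by a facility workflow, and 0 RNA counts were odd numbers, so RNA counts came in steps of 2. Each table listed only genes that reached 100 footprint counts in some library. The 11 symbols on more than 1 entry were left out. Totals over listed genes were taken as depth, and CPM is a count divided by this total and multiplied by 1e+06.

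Genes with a mean count of at least 10 were fitted with edgeR 4.0.16 (quasi-likelihood, TMM, R 4.3.3), 1 fit per comparison and 1 fit of 4 groups for interactions, with Benjamini-Hochberg adjustment over all genes tested. SE is the log2 change divided by the root of F, and intervals use the t quantile of the residual degrees of freedom. DESeq2 1.42.0 was an alternative, as were library totals, no count filter, the replicate block, other libraries and leaving out each library. In simulated data of 10397 genes for footprints, 5 against 6, 99% of the simulated 2-fold changes were recovered. For translational efficiency it was 48%, in simulated data of 10118 genes. These rates hold for the spread that was simulated, and are not rates at which changes of the members would be called. In footprints for Ctu1 iKO in DMSO, Vldlr had a log2 change of 1.02 ± 0.28 (SE) and was not called. Chac1, Gadd45a, Sesn2 and Trib3, with larger changes, were called. Tables were handled with Python 3.11.15 and pandas 2.3.3.

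The 8 genes and all lists were chosen with earlier results of these data known. Named genes were the 8, Ctu1, Atf4, Ddit3 and the paralogs, up to 3 called genes with the largest change per list and comparison, and the 10 genes most like the profile. Deviations from group means correlated between same-numbered samples, with every r over 0.1, in footprints for torin 1 in control (0.465 to 0.650) and Ctu1 iKO in torin 1 (0.362 to 0.609), and in RNA for all 4 comparisons (0.481 to 0.839), so that the numbers were taken to pair there. In footprints they did not for Ctu1 iKO in DMSO (-0.104 to 0.500) and for torin 1 in Ctu1 iKO cells (-0.033 to 0.487).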

Additional observations from a re-analysis of the deposited data

Results flagged for a closer look

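Control torin 1 replicate 1 stood apart from the other 5 footprint libraries of its group for 2 genes, by a gap that was large against the range of the group. Vldlr held 18.8 CPM there, with 9.36 CPM as the next highest value, and Nupr1 held 33.3 CPM, with 16.9 CPM next. These were 2 of 26 groups tested, where about 5% of groups would be expected to give such a gap by chance.

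RNA replicates 4 to 6, which the comparisons above do not use, held values above the highest control DMSO library. Trib3 reached 32.4 CPM in control torin 1 replicate 5 against 14.8 CPM, and Ddit4 reached 12.5 CPM in that library against 11.9 CPM. Vldlr reached 29.997 CPM in it against 26.1 CPM. Gadd45a reached 11.7 CPM in Ctu1 iKO DMSO replicate 5 against 3.44 CPM, and Nupr1 reached 38.1 CPM in Ctu1 iKO DMSO replicate 4 against 22.9 CPM. Of these 11 libraries 6 were nearer to the mean profile of another group than to that of their own. Control torin 1 replicates 5 and 6 were nearest Ctu1 iKO DMSO, Ctu1 iKO DMSO replicates 4 and 5 nearest Ctu1 iKO torin 1, and Ctu1 iKO torin 1 replicates 5 and 6 nearest control DMSO. The values named here for control torin 1 replicate 5 and for Ctu1 iKO DMSO replicates 4 and 5 are from such libraries, and the cause was not tested.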

How the results depend on the processing

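Over the alternatives, values of members called in the fits above stayed on the same side of 0 and of the threshold 287 times, lost the call 55 times and changed sign 1 time (Trib3 RNA, torin 1 in control, over all RNA replicates). Scaling by library totals moved the median of all genes by 0.124 in translational efficiency for torin 1 in control and by 0.162 for torin 1 in Ctu1 iKO cells, and by less than 0.1 in footprints and RNA.

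The count of footprint members called for Ctu1 iKO in DMSO, 4, became 2 in the fit of all 4 groups, which holds 5 of the 8 genes, 0 in replicates 1 to 3 and 0 in replicates 4 to 6, while the genes called of all genes went from 277 to 272, 2 and 5. For torin 1 in control, 2 became 0 and 0 in those sets, and 714 of all genes became 138 and 305. For torin 1 in Ctu1 iKO cells, 1 became 2 with library totals, 3 with DESeq2, 2 in the fit of 4 groups and 2 with the replicate block, where Nupr1 joined (0.63), while over all genes 788 became 897, 1161, 1187 and 983. For Ctu1 iKO in torin 1, 3 became 0 in replicates 1 to 3 and 1 in replicates 4 to 6, and 479 of all genes became 1 and 228. Fewer samples were fitted in these sets.

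In RNA the count for Ctu1 iKO in DMSO, 6, became 3 in the fit of 4 groups, with 518 and 604 of all genes called. The counts for torin 1, 2 in control and 2 in Ctu1 iKO cells, became 0 and 0 over all RNA replicates as labelled, where 916 and 0 of all genes were called. For Ctu1 iKO in torin 1, 1 became 3 with DESeq2, 2 in the fit of 4 groups, 4 with the replicate block and 0 over all RNA replicates, while over all genes 126 became 1092, 970, 3162 and 0. The cause of these changes was not tested. The block changed no other call of a member than those named here and above, and raised most counts over the lists.

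Leaving out each library in turn gave 4 to 5 footprint members called for Ctu1 iKO in DMSO, 1 to 2 for torin 1 in Ctu1 iKO cells (2 without Ctu1 iKO DMSO replicate 1 or Ctu1 iKO torin 1 replicate 2 or 4) and 2 to 4 for Ctu1 iKO in torin 1, while over all genes 144 to 285, 527 to 921 and 301 to 572 were called. In RNA it gave 0 to 5 for Ctu1 iKO in DMSO, 1 to 2 for torin 1 in Ctu1 iKO cells and 0 to 2 for Ctu1 iKO in torin 1, while over all genes 0 to 511, 123 to 1123 and 1 to 406 were called.

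Values that changed sign were as follows, none of them called but the first. Over all RNA replicates, Trib3 was 0.11 and Vldlr 0.31 for torin 1 in control, Gadd45a -0.45 and Nupr1 -0.066 for torin 1 in Ctu1 iKO cells, Ddit4 -0.36 and Trib3 -0.39 for Ctu1 iKO in torin 1, and Gadd45a -1.10015 for the interaction. In footprint replicates 1 to 3, Gadd45a was -0.27 for torin 1 in control, -0.046 in Ctu1 iKO cells and 0.22 for the interaction, and Vldlr was 0.00079 for torin 1 in Ctu1 iKO cells. In replicates 4 to 6, Vldlr was 0.063 and 0.14 for torin 1 in control and Ctu1 iKO cells, and Ddit4 -0.032 for the interaction. For torin 1 in Ctu1 iKO footprints the block gave -0.021 for Gadd45a and 0.082 for Vldlr, library totals 0.078 for Vldlr, and leaving out the libraries nearest another group 0.40 for Vldlr. Library totals gave 0.033 for Vldlr with torin 1 in control footprints.

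In translational efficiency over all replicates, Sesn2 was 0.31 and Vldlr 0.047 for Ctu1 iKO in DMSO, Nupr1 0.35 for Ctu1 iKO in torin 1, and Gadd45a 0.48 and Trib3 -0.12 for torin 1 in Ctu1 iKO cells. Nupr1 for Ctu1 iKO in torin 1 was 0.078 with library totals, 0.011 with no filter and 0.11 with the lysate as replicate block. Library totals gave 0.11 for Nupr1 and 0.063 for Vldlr with torin 1 in control.

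Leave-one-out ranges that crossed 0 were, in RNA, -0.037 to 0.14 for Gadd45a and -0.55 to 0.19 for Vldlr in the interaction, and -0.41 to 0.32 and -0.46 to 0.039 for Vldlr with torin 1 in control and Ctu1 iKO cells. In footprints they were -0.034 to 0.36 for Ddit4, -0.11 to 0.42 for Nupr1 and -0.16 to 0.32 for Vldlr in the interaction, -0.084 to 0.17 for Gadd45a and -0.24 to 0.26 for Vldlr with torin 1 in Ctu1 iKO cells, and -0.32 to 0.087 for Vldlr with torin 1 in control. In translational efficiency they were -0.019 to 0.35 for Ddit4, -0.051 to 0.10 for Trib3 and -0.48 to 0.11 for Vldlr with Ctu1 iKO in DMSO, -0.18 to 0.41 for Nupr1 with Ctu1 iKO in torin 1, -0.45 to 0.0046 for Gadd45a with torin 1 in Ctu1 iKO cells, and -0.42 to 0.14 for Nupr1 and -0.47 to 0.11 for Vldlr with torin 1 in control.

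Over all genes, edgeR and DESeq2 called 277 and 700 in footprints for Ctu1 iKO in DMSO, 479 and 842 in torin 1, and 63 and 109 for the interaction. In RNA they called 518 and 1530 for Ctu1 iKO in DMSO, 126 and 1092 in torin 1, 1250 and 1963 for torin 1 in control, and 794 and 1609 in Ctu1 iKO cells. With the replicate block edgeR called 2019 for torin 1 in control and 1425 for Ctu1 iKO in torin 1 in footprints, and 2831, 3162, 4245 and 3378 for those 4 comparisons in RNA. Control counts of Chac1 between 21 and 93 limit its footprint fold.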
